A study of Homo sapiens with 8 samples.

Results

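The apolipoproteins are the protein coat of the lipoprotein particles that carry fat and cholesterol in blood, and the liver secretes most of them. Very-low-density lipoprotein (VLDL) is built in the endoplasmic reticulum of the hepatocyte, where the microsomal triglyceride transfer protein loads lipid onto apolipoprotein B. High-density lipoprotein (HDL) forms around apolipoproteins A-I and A-II when the transporter ABCA1 delivers lipid to them. The smaller exchangeable apolipoproteins then set how fast a particle is lipolyzed or taken up. The genes described here are 10 of the 60230 rows of the count table, taken by symbol: APOA1, APOA2, APOA4, APOB, APOC1, APOC3, APOE, APOH, APOM and MTTP. Each of the 10 was among the 13400 genes with enough counts to be tested.

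RNA was sequenced from HepG2 cells, a human liver cancer cell line, that overexpress the drug-metabolizing enzyme CYP2C19. Cells received 0.2% DMSO as control, compound 4 (metylcresol in the sample labels), compound 5 (tetrabut) or compound 6 (cyclohexil) for 24 h, with 2 samples per group. The compounds are bisphenol antioxidants used in plastics, each given at its own IC50. The study describes these IC50 values as rather comparable, so the concentrations were near each other but not equal. The IC50 came from a longer exposure than the 24 h before RNA was taken. Compounds 4 and 6 share a methylene bridge and differ in carrying tert-butyl or cyclohexyl groups on the rings. Compound 5 has both rings on the same carbon of an ethane unit and carries tert-butyl groups only. The labels name the samples of a group day 1 and day 2, taken here as replicates 1 and 2. Nothing in the sources says that they came from separate cultures, so p-values measure the spread between these samples, which may be technical. All groups were the same cell line, so no comparison reaches beyond it, and no group without the transgene was measured here.

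The total count was between 9791659 and 17814595 per library. CYP2C19 had 196 to 667 counts in each library (16.4 to 52.8 CPM, counts scaled to a common library size) and rose under compound 5 (log2-fold change 1.05, adjusted p = 0.0395). The 8 hepatocyte-lineage markers were present in every library, with a summed level of 35283 to 36548 CPM under DMSO and 25491 to 32697 CPM under the compounds. The 5 enterocyte markers summed to 0.687 to 1.60 CPM, and SI and CDX1 were at 0 in every library. Of the 5 fibroblast and stellate markers, COL1A2, DCN and LUM were at 0 in every library, and the sum, nearly all of it PDGFRB, was 5.02 to 9.22 CPM under DMSO, 23.3 to 25.4 CPM under compound 4, 7.63 to 11.4 CPM under compound 5 and 14.3 to 14.6 CPM under compound 6. The 4 endothelial markers summed to 0.740 to 2.08 CPM, with 1 of them at 0. The 5 leukocyte and macrophage markers summed to 1420 to 2189 CPM, nearly all of it LYZ, with PTPRC and CD163 at 0 in every library. PDGFRB (1.79, adjusted p = 0.00634) and the lysosomal protein gene CD68 (0.80, adjusted p = 0.0164) rose under compound 4. The other tested leukocyte and macrophage markers, CD14 (1.42) and LYZ (−0.32), were not called under compound 4. The part of these markers in the results was not tested. In bulk RNA, fewer cells of a kind and less RNA per cell cannot be told apart.

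Promoter sequences are given for APOA4 and its neighbour APOA5, for APOH, whose level was also lower under the compounds, and for APOA2, whose level was not. RefSeq (GRCh38.p14) windows were given for 7 of the 10 genes and not for APOA1, APOB and APOC3. The stretches run 5′ to 3′ toward the gene and end before the first exon base in GENCODE 29, except that the APOH stretch lies within the longer GENCODE 29 span of that gene. APOA4 and APOA5, neighbours on chromosome 11, are at chr11:116823307-116823554 and chr11:116792421-116792670, APOH is at chr17:66229423-66229665 and APOA2 at chr1:161223632-161223878, all on the minus strand.
APOA4: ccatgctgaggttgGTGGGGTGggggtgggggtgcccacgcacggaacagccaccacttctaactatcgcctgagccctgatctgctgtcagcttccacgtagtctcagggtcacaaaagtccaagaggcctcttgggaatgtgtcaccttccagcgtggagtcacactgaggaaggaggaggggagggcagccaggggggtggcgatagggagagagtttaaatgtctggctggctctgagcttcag
APOA5: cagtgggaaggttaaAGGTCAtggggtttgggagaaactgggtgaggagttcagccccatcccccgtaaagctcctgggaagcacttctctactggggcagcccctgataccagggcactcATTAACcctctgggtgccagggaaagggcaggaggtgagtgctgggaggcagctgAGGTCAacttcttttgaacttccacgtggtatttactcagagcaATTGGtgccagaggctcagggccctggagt
APOH: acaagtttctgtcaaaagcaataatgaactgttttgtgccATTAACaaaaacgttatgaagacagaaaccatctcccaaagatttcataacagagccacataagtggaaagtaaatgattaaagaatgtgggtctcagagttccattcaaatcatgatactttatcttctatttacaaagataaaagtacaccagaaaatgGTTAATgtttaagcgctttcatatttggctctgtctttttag
APOA2: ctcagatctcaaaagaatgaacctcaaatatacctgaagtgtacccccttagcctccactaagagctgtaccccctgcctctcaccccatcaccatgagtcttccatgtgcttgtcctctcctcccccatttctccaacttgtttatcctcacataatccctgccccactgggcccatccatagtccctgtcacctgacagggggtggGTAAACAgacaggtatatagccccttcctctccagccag

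The capitals mark exact matches, on either strand, to 8 short motifs searched for in each window. In APOA4 the match is to CACCCCAC, the reverse strand of the marked letters, which is an SREBP-type element and occurs in 2.43% of 35116 promoter windows of the same length. In APOA5 they are the nuclear receptor half-site AGGTCA (12.1% of windows), the HNF1 half-site GTTAAT (6.23%) and CCAAT (32.0%). The APOH stretch holds the HNF1 half-site in both orientations, and the APOA2 stretch holds the FOXA motif TGTTTAC (2.98%) on the opposite strand. The HNF4 site CAAAGTCCA (0.325% of windows), its core CAAAGT (10.3%), which is part of the longer motif, and TATAAA (10.7%) had no exact match in these 4 stretches. Motif searches describe letters only, and binding was not measured.

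Under DMSO the 10 genes together took 1.66% to 1.79% of all counts, and APOB alone 0.913% to 1.05%. Under compound 4 the shares of the 10 genes were 1.18% and 1.20%, under compound 5 1.33% and 1.41%, and under compound 6 1.57% and 1.33%, so each treated library was below both DMSO libraries. Per kilobase of the main transcript, APOA2 was the most abundant under DMSO at 3016 CPM per kb, followed by APOA1 at 2785, APOH at 920 and APOE at 709 CPM per kb. APOB had 682 CPM per kb, APOC1 188, APOM 109, APOC3 94.9, MTTP 42.6 and APOA4 18.6 CPM per kb. The 2 DMSO libraries overlapped between APOE and APOB and between APOM and APOC3, and no other neighbours in this order overlapped.

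**Figure D1:**
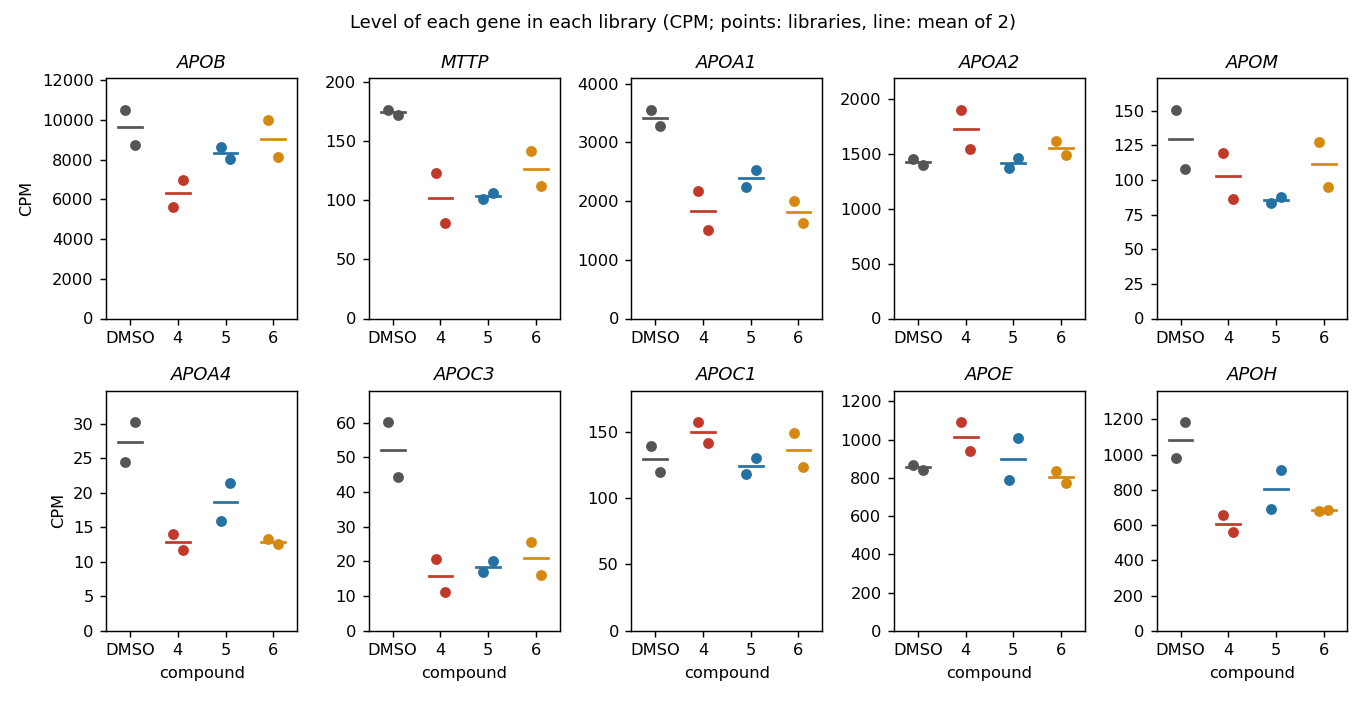
Level of each of the 10 genes in each library, in CPM on a linear axis that starts at 0, with a point for each library and a line for the mean of the 2 libraries of a group. APOA1, APOA4, APOC3, APOH and MTTP show all 6 treated libraries below both DMSO libraries, whereas the points of APOA2, APOC1 and APOE lie above both DMSO libraries under compound 4.

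Compared with DMSO, 6 of the 10 genes fell under compound 4 (APOA1, APOA4, APOB, APOC3, APOH and MTTP), 2 under compound 5 (APOC3 and MTTP) and 1 under compound 6 (APOA4), and none rose (edgeR). DESeq2 called the same 6 under compound 4, 5 under compound 5 (APOA1, APOC3, APOH, APOM and MTTP) and 4 under compound 6 (APOA1, APOA4, APOC3 and APOH). With edgeR on only the groups compared, APOA1, APOC3 and MTTP were called under compound 5. The same setting called 5 under compound 6 (APOA1, APOA4, APOC3, APOH and MTTP). Over all 13400 genes tested, the share called lower than DMSO with edgeR on all 8 samples was 3.91%, 2.95% and 0.0821%. Calls in either direction over all genes were 1275, 1112 and 77 in that fit, and 1437, 1349 and 547 with DESeq2. With edgeR on only the groups compared, 847 of 13011 genes were called under compound 5 and 1023 of 12998 under compound 6. The median log2-fold change of the 10 genes under compounds 4, 5 and 6 was −0.70, −0.47 and −0.34, beside 0.01, 0.00 and 0.02 over all genes tested. Leaving out compound 6 replicate 1 moved the compound 6 median to −0.55, and leaving out its replicate 2 moved it to −0.17. Both treated libraries were below both DMSO libraries for 6, 7 and 6 of the 10 genes, against 28%, 28.5% and 26% of all genes. For 5 of the 10, all 6 treated libraries were below both DMSO libraries, against 11.7% of all genes. In the test of any difference among the 4 groups, 4 of the 10 genes passed (APOA1, APOA4, APOC3 and APOH), against 6.02% of all genes. The 3 comparisons share the same 2 DMSO libraries, so their agreement is not independent.

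These counts rest on few libraries. Under compound 4, 2 genes (APOA4 and APOH) were called without DMSO replicate 1, and 0 without DMSO replicate 2 or without compound 4 replicate 2. Under compound 5 the count was 0 without DMSO replicate 1, DMSO replicate 2 or compound 5 replicate 1. Under compound 6 it was 0 without either DMSO library or either compound 6 library, and 3 or 4 without any one of the compound 4 or compound 5 libraries. In the test of any difference it was 0 without DMSO replicate 1 or DMSO replicate 2, and 2 without compound 6 replicate 2. Without DMSO replicate 2, the calls under compound 4 over all genes went from 1275 to 43. With the replicate block, 3 genes passed under compound 5, APOM (adjusted p = 0.0429) beside APOC3 and MTTP, and under compound 6 APOA1 (adjusted p = 0.0439) passed in place of APOA4 (adjusted p = 0.0527).

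APOB (chr2:21001429-21044073, 29 exons) encodes the structural protein of VLDL and low-density lipoprotein, and a particle holds a single copy of it. Its level was 10507 and 8752 CPM under DMSO, 5616 and 6978 CPM under compound 4, 8630 and 8035 CPM under compound 5 and 9979 and 8108 CPM under compound 6. The libraries of compounds 4 and 5 were below both DMSO libraries, and those of compound 6 overlapped them. APOB fell under compound 4 to 65.4% of its DMSO level, a log2-fold change of −0.61 ± 0.14 (SE, adjusted p = 0.0290). The log2-fold change was −0.21 (95% interval −0.53 to 0.11) under compound 5 and −0.09 (−0.41 to 0.23) under compound 6.

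MTTP (chr4:99563761-99623999, 19 exons) encodes the lipid transfer subunit that works on apolipoprotein B. It was at 177 and 172 CPM under DMSO, 123 and 80.8 CPM under compound 4, 101 and 106 CPM under compound 5 and 142 and 112 CPM under compound 6. No treated library reached the lower DMSO library. MTTP fell under compound 4 (−0.78 ± 0.18, adjusted p = 0.0298) and under compound 5 (−0.75 ± 0.18, adjusted p = 0.0379). Under compound 6 the log2-fold change was −0.46 (95% interval −0.87 to −0.05, adjusted p = 0.221). MTTP overlaps TRMT10A on the opposite strand, which had 53 to 110 counts per library against 1062 to 2056 for MTTP. P4HB, the disulfide isomerase that forms the other subunit of the transfer protein, was not called against DMSO (−0.09, 0.23 and −0.26 under compounds 4, 5 and 6).

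APOA1 (chr11:116835751-116837950) encodes the main protein of HDL, and it activates the cholesterol-esterifying enzyme LCAT. The level was 3556 and 3278 CPM under DMSO, 2171 and 1502 CPM under compound 4, 2244 and 2538 CPM under compound 5 and 1996 and 1632 CPM under compound 6. The groups did not overlap with DMSO, and compounds 4 and 6 were the lower ones. APOA1 fell under compound 4 to 53.7% of DMSO (−0.90 ± 0.17, adjusted p = 0.0151). Under compound 6 the change was of like size, −0.91 ± 0.17, but did not pass with edgeR (adjusted p = 0.0510), and under compound 5 it was −0.52 ± 0.17 (adjusted p = 0.0858). DESeq2 gave APOA1 an adjusted p of 6.18e-06 under compound 6 and 0.0186 under compound 5.

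APOA2 (chr1:161222292-161223631), for the second protein of HDL, did not share this pattern. Its level was 1459 and 1400 CPM under DMSO, 1905 and 1549 CPM under compound 4, 1373 and 1462 CPM under compound 5 and 1615 and 1496 CPM under compound 6. Both libraries of compounds 4 and 6 were above DMSO, and those of compound 5 overlapped it. The log2-fold changes were 0.27 (95% interval 0.02 to 0.53, adjusted p = 0.160), −0.01 (−0.27 to 0.24) and 0.12 (−0.13 to 0.38).

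APOM (chr6:31652416-31658210) encodes the carrier of sphingosine-1-phosphate on HDL. It was at 151 and 108 CPM under DMSO, 119 and 86.3 CPM under compound 4, 83.6 and 87.6 CPM under compound 5 and 127 and 95.03 CPM under compound 6. Only compound 5 lay below both DMSO libraries. The log2-fold changes were −0.33 (95% interval −0.78 to 0.12), −0.59 (−1.05 to −0.14, adjusted p = 0.0954 with edgeR and 0.0251 with DESeq2) and −0.22 (−0.67 to 0.24). APOM overlaps BAG6 on the opposite strand, which had 3497 to 7280 counts per library against 1003 to 1539 for APOM, so the APOM values are uncertain. The libraries were made with a directional kit, and the library type set in the quantification is not given in the sources used here.

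APOC3 (chr11:116829706-116833072) encodes an inhibitor of lipoprotein lipase and of remnant uptake, and it had the most negative log2-fold change of the 10 genes under each compound. Its level was 60.2 and 44.2 CPM under DMSO, 20.5 and 11.3 CPM under compound 4, 17.0 and 19.97 CPM under compound 5 and 25.7 and 16.2 CPM under compound 6. The highest treated library was at 25.7 CPM and the lowest DMSO library at 44.2 CPM. APOC3 fell under compound 4 to 30.5% of DMSO (−1.72 ± 0.29, adjusted p = 0.00986) and under compound 5 to 35.5% (−1.49 ± 0.28, adjusted p = 0.0171). Under compound 6 it was at 40.1% of DMSO (−1.32 ± 0.29), which did not pass with edgeR (adjusted p = 0.0659) and passed with DESeq2 (adjusted p = 0.00022).

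APOA4 (chr11:116820700-116823306) encodes a lipid-binding apolipoprotein best known from the intestine, and it was the least abundant of the genes per kilobase. It was at 24.5 and 30.2 CPM under DMSO, 13.98 and 11.6 CPM under compound 4, 15.9 and 21.3 CPM under compound 5 and 13.2 and 12.5 CPM under compound 6. All treated libraries were below DMSO, with compound 5 between DMSO and the other compounds. APOA4 fell under compound 4 (−1.10 ± 0.19, adjusted p = 0.00973) and compound 6 (−1.09 ± 0.19, adjusted p = 0.0478), to 46.8% and 47.1% of DMSO. The change under compound 5 was −0.55 ± 0.18 (adjusted p = 0.0838).

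APOC1 (chr19:44914247-44919349), a small exchangeable apolipoprotein, and APOE (chr19:44905754-44909393), a ligand for the uptake of remnant particles, were not called under any compound. APOC1 was at 139 and 120 CPM under DMSO, 157 and 142 CPM under compound 4, 118 and 130 CPM under compound 5 and 149 and 123 CPM under compound 6. APOE was at 869 and 843 CPM under DMSO, 1092 and 939 CPM under compound 4, 787 and 1007 CPM under compound 5 and 834 and 774 CPM under compound 6. Both genes were above DMSO in each compound 4 library, and only APOE was below it in both libraries of compound 6. The log2-fold changes of APOC1 were 0.21 (95% interval −0.08 to 0.50), −0.06 (−0.35 to 0.23) and 0.08 (−0.21 to 0.37). Those of APOE were 0.25 (−0.05 to 0.54), 0.07 (−0.23 to 0.36) and −0.09 (−0.38 to 0.20). Under compound 4 the lower ends of the intervals were −0.05 for APOE and −0.08 for APOC1. These intervals are not adjusted for the number of genes and rest on 2 libraries per group, so a larger fall is not excluded. APOC1 has a pseudogene, APOC1P1, with 3 to 8 counts per library.

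APOH (chr17:66212033-66256525) encodes beta-2-glycoprotein I, a phospholipid-binding plasma protein named with the apolipoproteins. It was at 979 and 1184 CPM under DMSO, 659 and 558 CPM under compound 4, 692 and 913 CPM under compound 5 and 681 and 686 CPM under compound 6. The groups did not overlap with DMSO. APOH fell under compound 4 to 56.3% of DMSO (−0.83 ± 0.15, adjusted p = 0.0134). The change was −0.66 ± 0.15 under compound 6 (adjusted p = 0.0737) and −0.43 ± 0.15 under compound 5 (adjusted p = 0.102), and both passed with DESeq2 (adjusted p = 0.000954 and 0.0379).

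**Figure D2:**
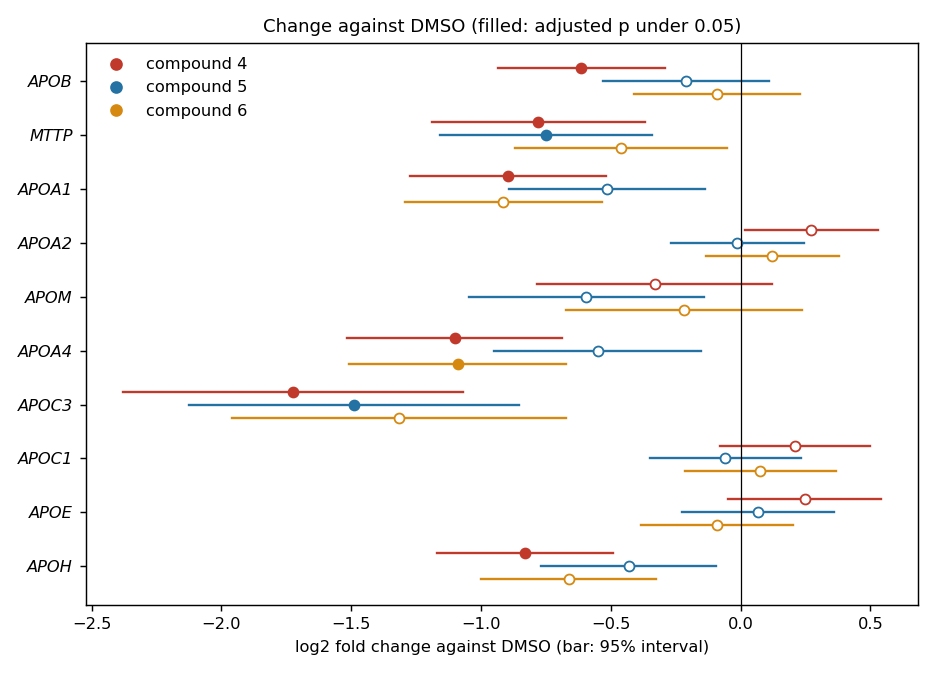
Log2-fold change of each gene against DMSO (horizontal axis) with its 95% interval, in red for compound 4, blue for compound 5 and orange for compound 6, with filled points where the adjusted p was under 0.05. APOC3 lies farthest left under each compound, at −1.72, −1.49 and −1.32, and the intervals of APOC1 and APOE include 0 under all 3 compounds.

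Of the 10 genes, APOA1, APOA4 and APOC3 lie in a cluster on chromosome 11 and APOE and APOC1 in a cluster on chromosome 19, and the others lie in neither. On chromosome 11, APOA5, APOA4, APOC3 and APOA1 stand in a row. APOA5, not one of the 10 genes and an activator of triglyceride lipolysis, was at 92.3 and 83.1 CPM under DMSO, 49.8 and 26.6 CPM under compound 4, 26.0 and 33.0 CPM under compound 5 and 45.7 and 36.1 CPM under compound 6. All 4 genes of the cluster had a lower level in each treated library than in both DMSO libraries. APOA5 fell under compound 4 (−1.20, adjusted p = 0.0204) and compound 5 (−1.57, adjusted p = 0.0107), with −1.10 under compound 6 (adjusted p = 0.0768), and neither call held without DMSO replicate 1 or without DMSO replicate 2. The call under compound 4 was also lost without compound 4 replicate 2 and the call under compound 5 without compound 5 replicate 1. The genes on either side of the cluster were not called, ZPR1 at 1.32 kb having log2-fold changes of 0.25, 0.35 and 0.20 and SIK3 at 5.45 kb 0.19, 0.27 and 0.27.

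On chromosome 19, APOE, APOC1 and APOC2 were not called under any compound, APOC2, the cofactor of lipoprotein lipase, having log2-fold changes of −0.15, −0.05 and −0.22. The readthrough gene APOC4-APOC2, which overlaps APOC2, was not called either. Of the adjacent genes, TOMM40 at 2.06 kb and CLPTM1 at 5.02 kb were not called. Farther out, BCAM, an adhesion molecule 84.3 kb away, fell under compound 4 (−1.36, adjusted p = 0.00116) and compound 5 (−1.58, adjusted p = 0.000806). RELB at 51.9 kb, a subunit of NF-kappaB, rose under compound 4 (0.97, adjusted p = 0.0449) from a low DMSO level of 3.57 CPM. BCL3 at 146 kb, a partner of NF-kappaB, rose under compound 4 (0.63, adjusted p = 0.0271) and compound 5 (0.60, adjusted p = 0.0359). The other tested genes farther out, at up to 142 kb, were CBLC, NECTIN2, CLASRP, ZNF296, GEMIN7, MARK4 and PPP1R37. None of them was called under any compound. Whether the 2 clusters differed from each other was not tested.

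**Figure D3:**
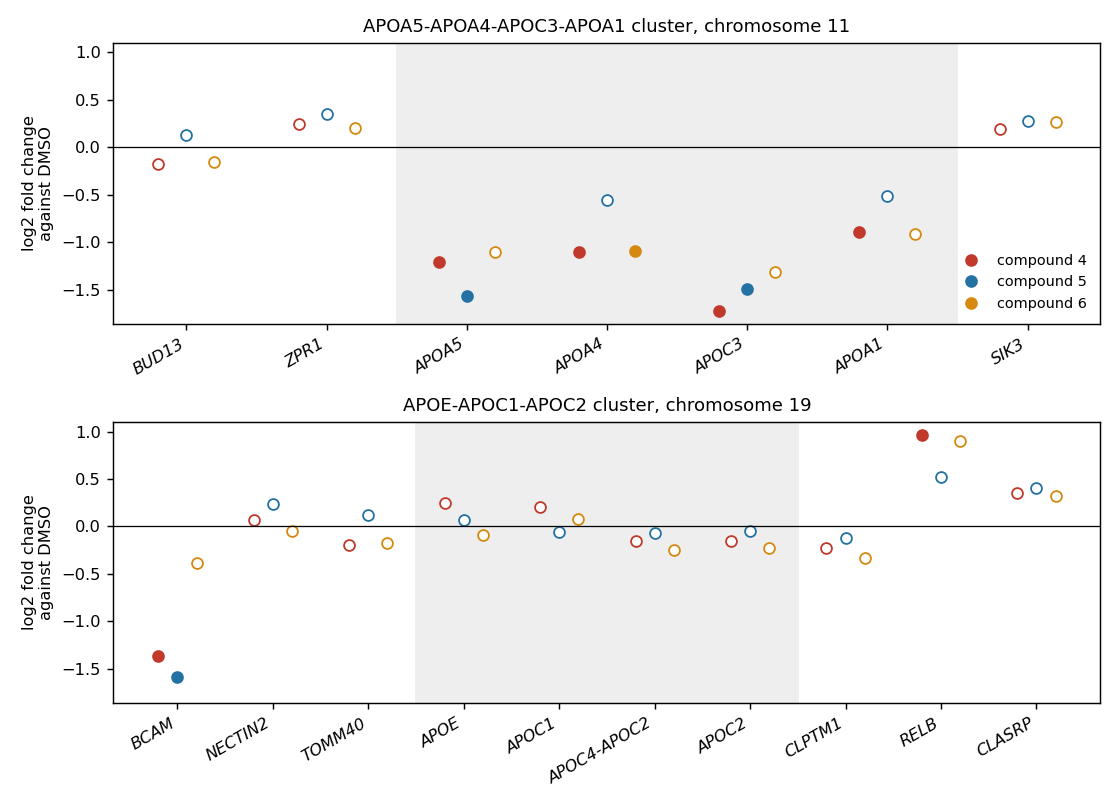
Log2-fold change against DMSO of the genes in and around the 2 apolipoprotein clusters, in order along chromosome 11 (upper panel) and chromosome 19 (lower panel), colours as in the plot of changes, filled where the adjusted p was under 0.05 and with the cluster shaded. Every point of APOA5, APOA4, APOC3 and APOA1 lies below −0.5, while those of APOE, APOC1 and APOC2 lie between −0.22 and 0.25.

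Of 16 other apolipoproteins and lipoprotein-bound proteins, 8 had enough counts to be tested, and APOA5 was the only one called, under compounds 4 and 5. The share of all genes called lower under these compounds was 3.91% and 2.95%. The median log2-fold change of the 8 was −0.07, −0.15 and −0.27 under compounds 4, 5 and 6. Clusterin (CLU), the chaperone also called apolipoprotein J, had log2-fold changes of −0.13, −0.03 and −0.33, none of them called.

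Of 25 genes of the assembly and secretory route, 1 fell and 1 rose under compound 4, 2 fell and 7 rose under compound 5 and none was called under compound 6. Over all genes, 5.6%, 5.35% and 0.493% were called higher under compounds 4, 5 and 6, and 3.91%, 2.95% and 0.0821% lower. SORT1, a sorting receptor for apolipoprotein B, fell under compound 5 (−0.52, adjusted p = 0.0359). The genes that rose under compound 5 belong to the route out of the endoplasmic reticulum. They were MIA3, which helps large cargo leave (1.21, adjusted p = 0.00742), and the COPII coat genes SEC24D (0.88), SEC24A (0.73) and SEC23B (0.57). The others were the cargo receptor SURF4 (0.44, adjusted p = 0.0226), the SAR1 exchange factor PREB (0.39, adjusted p = 0.0498) and the scramblase VMP1 (0.50). The PREB call was lost when any single library was left out. SURF4 was at 416 and 450 CPM under DMSO and at 592 and 584 CPM under compound 5. VMP1 was the gene that rose under compound 4 (0.57, adjusted p = 0.0210). The median of the 25 genes was −0.07 under compound 4, 0.30 under compound 5, the opposite sign to that of the 10 genes, and 0.01 under compound 6. Without DMSO replicate 1 or DMSO replicate 2 none of the 25 genes rose under compound 5, and 2 rose without compound 5 replicate 1.

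Of 17 genes of lipoprotein uptake and HDL formation, 14 were tested. ABCA1, which loads lipid onto apolipoprotein A-I, was at 87.9 and 84.4 CPM under DMSO, 42.1 and 45.2 CPM under compound 4, 58.2 and 46.0 CPM under compound 5 and 89.4 and 75.2 CPM under compound 6. It fell under compound 4 (−0.98, adjusted p = 0.00563) and compound 5 (−0.73, adjusted p = 0.0171), and its compound 6 libraries overlapped DMSO. LCAT, the cholesterol-esterifying enzyme of HDL, fell under compound 4 (−0.93, adjusted p = 0.0156). LIPG, an endothelial lipase, had 27 and 41 counts under DMSO, 3 in each compound 4 library and 3 and 10 under compound 5, and was called under both compounds, at counts too low for a firm size. SCARB1, the HDL receptor, fell under compound 5 (−0.65, adjusted p = 0.0442). LRP5, a lipoprotein receptor-related protein, rose under compound 4 (0.42, adjusted p = 0.0371). Of the 14 genes, 3 fell and 2 rose under compound 4, 3 fell under compound 5 and none was called under compound 6. Beside these, 3.91% of all genes were called lower and 5.6% higher under compound 4, and 2.95% lower under compound 5. The median of the 14 was 0.01, −0.03 and 0.00. The ABCA1 call under compound 4 was lost without DMSO replicate 2, and under compound 5 without either DMSO library.

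Of 28 regulators of these genes, each tested, 3 fell and 2 rose under compound 4, 1 fell and 5 rose under compound 5 and none was called under compound 6. The shares over all genes were 3.91% called lower and 5.6% called higher under compound 4, and 2.95% and 5.35% under compound 5. HNF4A, the nuclear receptor that many liver-secreted proteins depend on, was at 314 and 298 CPM under DMSO and 254 to 327 CPM under the compounds, with log2-fold changes of 0.09, −0.16 and 0.07, not called. NR0B2, the corepressor SHP, was at 69.6 and 62.7 CPM under DMSO, 119 and 111 CPM under compound 4, 146 and 141 CPM under compound 5 and 92.6 and 99.6 CPM under compound 6. It rose under compound 4 (0.80, adjusted p = 0.00427) and compound 5 (1.12, adjusted p = 0.00188), and its value under compound 6 was 0.54 (adjusted p = 0.0541). ESRRA, an orphan nuclear receptor, rose under both (0.60 and 0.59), and SREBF2, the sterol-responsive factor SREBP-2, fell under both (−0.55 and −0.64). NR1H4, the bile acid receptor FXR (−0.74, adjusted p = 0.0233), and ONECUT1, the liver factor HNF6 (−1.19, adjusted p = 0.0433), fell under compound 4. Under compound 5 the heme receptor NR1D1 (2.09, adjusted p = 0.00555), CEBPB (1.03) and the coactivator PPARGC1A (0.89) also rose. The median of the 28 was 0.09, 0.04 and −0.09. With the replicate block, 5 genes rose under compound 4.

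The list of other secreted liver proteins holds plasma proteins that are not apolipoproteins. Of 22, 6 fell under compound 4 (AFP, TF, FGA, FGG, HP and ITIH2), 1 fell (HP) and 2 rose (FGB and A1BG) under compound 5, and none was called under compound 6. Among all genes tested, 3.91% were called lower under compound 4, and 2.95% lower and 5.35% higher under compound 5. The median log2-fold change of the 22 was −0.35, −0.16 and −0.23. Albumin (ALB), the most abundant of them, had −0.26, −0.19 and −0.36 and was not called. With the replicate block, 4 of the 22 fell under compound 5. Without DMSO replicate 2 none of the 22 fell under compound 4, and 2 fell without DMSO replicate 1 or without compound 4 replicate 2. Under compound 6 edgeR called none of these list genes. Its unadjusted p was under 0.05 for 2 of 8 other apolipoproteins, 7 of 25 genes of the assembly route and 3 of 14 of uptake and HDL formation. The same held for 10 of 28 regulators and 9 of 22 secreted proteins, beside 2490 of all 13400 genes tested. DESeq2 called 1, 1, 1, 2 and 6 genes of these lists under compound 6, beside 547 of the 13400 genes. In total the 4 lists of pathway genes and these proteins gave 41 calls against DMSO, of which 2 held without each of the 8 libraries in turn, among them NR0B2 under compound 5.

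The compounds were compared with each other directly, at concentrations that were not equal. None of the 10 genes was called between compounds 4 and 5, between 4 and 6 or between 6 and 5 with edgeR or DESeq2, beside 0.313%, 0% and 1.03% of all genes with edgeR. At an unadjusted p under 0.05 (edgeR) there were 5, 2 and 2 of the 10, beside 2177, 945 and 2483 of all 13400 genes tested. Compounds 4 and 6, which differ in tert-butyl against cyclohexyl groups, had near-equal levels of APOA1 (difference 0.02 on the log2 scale, 95% interval −0.36 to 0.39) and of APOA4 (−0.01, −0.45 to 0.42). Their difference for APOB was −0.52 (−0.84 to −0.20, adjusted p = 0.437), and both compound 4 libraries were below both compound 6 libraries. For APOC3 it was −0.41 (−1.08 to 0.26). Between compounds 4 and 5 the differences were −0.55 for APOA4 (−0.97 to −0.13, adjusted p = 0.203), −0.40 for APOH (−0.74 to −0.06, adjusted p = 0.245) and −0.38 for APOA1 (−0.76 to 0.00, adjusted p = 0.305), while for MTTP it was −0.03 (−0.44 to 0.38). Compounds 6 and 5 differed by −0.54 for APOA4 (−0.96 to −0.12) and −0.40 for APOA1 (−0.78 to −0.02). A p that misses the threshold does not show that the compounds act alike.

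By the likeness of log2 CPM over the 8 libraries to the mean profile of the 10 genes, the closest other genes were ARL6IP5 (Pearson r = 0.986), S100A1 (0.986), ESPN (0.977), OBSL1 (0.977) and ECH1 (0.971). The libraries are in 4 groups and share their DMSO level, so these values describe the order of the libraries, and nothing follows from them about shared control. The log2-fold changes of these 5 genes against DMSO were between −0.66 and −0.26. The mean profile did not stand for each of the 10 genes. With the mean of the other members, r was −0.06 for APOA2, 0.05 for APOE, 0.11 for APOC1 and 0.20 for APOB. For the rest it was 0.61 (APOA4) to 0.90 (APOC3).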

How the data were processed

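Per the labels and the study's methods, mRNA libraries of 8 samples were sequenced, reads were checked with FastQC 0.12.0, quantified by the authors with Salmon 1.5.0 against GENCODE 38 (GRCh38) and summarized to genes, and the authors tested them with DESeq2 1.38.3. The authors deposited whole-number counts for 60230 genes, without normalization. DMSO replicate 1 and compound 4 replicate 1 are marked as merged in the labels, which do not say what was merged. Symbols were matched for 60089 identifiers and GENCODE 29 positions for 57972.

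The counts were tested in R 4.3.3 with edgeR 4.0.16 (TMM, filterByExpr with a minimum count of 10, quasi-likelihood test, all 8 samples in 1 fit, no block). The Benjamini-Hochberg adjustment ran over all 13400 genes tested, with a threshold of 0.05, and a gene past it is called. CPM values use TMM library sizes. Between groups of 2 samples no permutation test can pass this threshold, so none was run. The script was tested on simulated data. The genes and lists were chosen with earlier results of these data known, and the lists were written by hand. Some list genes are included in the counts and medians but are not reported here by name. Named list genes are those past the threshold, those with the most extreme values, and defining genes of a list named for reference (P4HB, CLU, HNF4A and ALB), the last chosen after their values were seen. Lengths are of the principal transcript in GENCODE 29. The pairing of replicates comes from the day in the labels. Differences between replicates 2 and 1 correlated between groups at −0.16 to 0.30 over the genes tested. Alternatives were DESeq2 1.42.0, the replicate block, only the groups compared, DESeq2 size factors, no filter, 10 counts in every sample and leaving out libraries. Figures were drawn in Python 3.11.15 with matplotlib 3.10.9.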

Additional observations from a re-analysis of the deposited data

Results flagged for a closer look

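None of the 10 genes passed the threshold in a direct comparison of compounds. Among the genes of the lists around them, 11 differences between 2 compounds passed the threshold (edgeR, adjusted over all genes). The share of all genes that passed was 0.313% between compounds 4 and 5 and 1.03% between compounds 6 and 5. On the log2 scale, compound 6 minus compound 5 was −0.495 for P4HB (adjusted p = 0.0453), −0.765 for SURF4 (adjusted p = 0.0104), −0.64 for SEC24D (adjusted p = 0.0458) and −0.579 for NR0B2 (adjusted p = 0.0366). The P4HB and NR0B2 differences were lost when any one library was left out, and that of SEC24D when any library other than compound 5 replicate 2 was.

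The fibrinogen chains were lower under compounds 4 and 6 than under compound 5. Compound 4 minus compound 5 was −1.16 for FGA, −0.908 for FGB and −1.24 for FGG, and compound 6 minus compound 5 was −1.13, −0.997 and −0.911. A1BG, a plasma glycoprotein, differed by −1.72 between compounds 6 and 5. FGG between compounds 4 and 5 was called without each of the 8 libraries in turn, and the differences of compound 6 from 5 for SURF4, FGA, FGB, FGG and A1BG were lost only without compound 6 replicate 1 or compound 6 replicate 2. Between compounds 4 and 5, FGA was lost without DMSO replicate 1, compound 4 replicate 2, compound 5 replicate 1 or compound 5 replicate 2, and FGB without compound 4 replicate 1, compound 4 replicate 2, compound 5 replicate 2 or compound 6 replicate 1.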

How the results depend on the processing

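Under compound 4, the 6 genes called were the same 6 with DESeq2, the replicate block, only the groups compared, DESeq2 size factors, no filter and 10 counts in every sample. Under compound 5 the count was 5 with DESeq2, 6 without a filter and 3 with the replicate block. With edgeR on only the groups compared, APOA1 (adjusted p = 0.0430) passed under compound 5 beside APOC3 and MTTP. Under compound 6 the count was 4 with DESeq2, 5 with only the groups compared, 5 without a filter and 2 with 10 counts in every sample. The replicate block gave 1 under compound 6. Without a filter, 3 genes differed between compounds 4 and 5, 1 between 4 and 6 and 1 between 6 and 5, and 7 in the test of any difference. The block changed no call of the 10 genes against DMSO beyond those of APOM, APOA1 and APOA4, and MTTP passed with it in the test of any difference. The all-gene calls under compound 6 were 77 in the reported fit, 547 with DESeq2, 1355 without a filter, 1023 with only the groups compared and 198 with 10 counts in every sample. Between compounds 4 and 5 they were 42, against 210 with DESeq2, 750 without a filter, 10 with only the groups compared and 128 with the replicate block.

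Leaving out 1 library at a time, the count was 0 to 6 under compound 4, 0 to 3 under compound 5, 0 to 4 under compound 6 and 0 to 5 in the test of any difference. Leaving out replicate 1 or 2 of every group leaves 1 library per group and gives values without a test. The compound 4 median was −0.78 to −0.58 without 1 library and −0.55 without replicate 2. Without 1 library, the compound 5 median was −0.61 to −0.32 and the compound 6 median −0.55 to −0.17. With libraries left out, log2-fold changes against DMSO changed sign for 6 values that were not called: APOA2 under compound 5 (−0.0849 to 0.0478), APOB under compound 6 (−0.26 to 0.0553), APOC1 under compound 5 (−0.23 to 0.10) and compound 6 (−0.0777 to 0.21), APOE under compound 5 (−0.14 to 0.24) and APOM under compound 6 (−0.45 to 0.0276). The causes of these shifts were not tested. APOA4 and APOC3 had the fewest counts of the 10 genes.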
